A study of Mus musculus with 12 samples.

Results

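The genes described here are 10 genes that mark successive stages of the oligodendrocyte lineage: Olig2, Sox10, Pdgfra, Cspg4, Vcan, Gpr17, Bmp4, Enpp6, Tcf7l2 and Bcas1. They were taken by symbol from the 55809 gene symbols of each count table, and all 10 were present and passed the count filter in both comparisons. Oligodendrocytes make the myelin that insulates axons, and they arise from oligodendrocyte precursor cells, which stay in the brain, the hypothalamus included, throughout adult life. A precursor that stops dividing becomes a committed cell, then a newly formed oligodendrocyte that has left the precursor programme but makes little myelin, and then a myelinating cell. Olig2 and Sox10 are transcription factors used throughout the lineage. Pdgfra, Cspg4 and Vcan mark precursors, Gpr17 and Bmp4 mark committed cells, and Enpp6, Tcf7l2 and Bcas1 mark newly formed oligodendrocytes, although Bcas1 mRNA continues into myelinating cells.

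RNA sequencing had been done on 12 libraries of sorted mouse cells, in 4 groups of 3. TOM positive and TOM negative cells came from the hypothalamus of untreated mice aged 4 weeks with the genotype Mc4r-Cre; Ai14. In these mice Cre is driven by Mc4r, the gene of the melanocortin 4 receptor that restrains food intake, and Ai14 is a reporter that makes the red protein tdTomato (TOM) for good once Cre has been active in a cell. AAV-Cre and AAV-GFP cells came from mice aged 26 weeks with the genotype Otp fl/fl; Ai14. An adeno-associated virus (AAV) had been injected 12 weeks before, and the paraventricular nucleus (PVH) of the hypothalamus was dissected. Cells of AAV-Cre mice, in which Cre removes the floxed part of Otp and activates the TOM reporter, were sorted as TOM positive. Cells of AAV-GFP mice, which carried the same floxed gene and reporter without Cre, were sorted as GFP positive. The labels used here give no promoter for either virus, and they leave unstated whether libraries of 1 group stem from different animals. The p-values below therefore rest on the spread between libraries alone, which may be technical. Otp, a transcription factor gene of hypothalamic neurons, had 12, 9 and 10 counts in the AAV-Cre libraries and 91, 102 and 38 in the AAV-GFP libraries. For Mc4r the TOM positive libraries held 63, 0 and 0 counts and the TOM negative ones 0, and the AAV-Cre libraries held 0 counts each, against 22, 11 and 13 for AAV-GFP.

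Library totals ran from 17727134 to 27827853 counts in TOM positive, from 22379648 to 23002571 in TOM negative, from 13506018 to 15125868 in AAV-Cre and from 14545566 to 19245171 in AAV-GFP libraries. A list of 14 mature oligodendrocyte genes (Mbp, Mobp, Mag and others that build or maintain myelin) took 4.93% to 5.47% of the counts in TOM positive and 1.79% to 2.30% in TOM negative libraries. It took 3.86% to 4.92% in AAV-Cre libraries, and 3.19%, 1.43% and 4.46% in AAV-GFP libraries 1, 2 and 3. A list of 12 neuronal genes took 0.0415% to 0.0498% in TOM positive, 0.00498% to 0.00587% in TOM negative, 0.217% to 0.256% in AAV-Cre and 0.123% to 0.202% in AAV-GFP libraries. The mature oligodendrocyte list thus took more counts than the neuronal list in every library. A list of 10 microglial genes took 0.0386% to 0.0917% in TOM positive, 2.05% to 2.27% in TOM negative, 0.497% to 0.917% in AAV-Cre and 0.233% to 0.342% in AAV-GFP libraries. For a list of 5 blood genes these shares were 0.0218% to 0.0430%, 1.79% to 4.07%, 0.00287% to 0.00872% and 0.0579% to 0.391%, in the same order. The part of microglia and blood in the differences below was not tested. AAV-GFP replicate 2 stood apart, with the lowest mature oligodendrocyte share and by far the highest Olig2 level, and results of that comparison are also given without it. In such bulk libraries, more cells of a type and more RNA per cell cannot be told apart.

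Promoter sequences are shown for 1 gene of each stage, the one with the smallest p in the TOM comparison among the 7 members that RefSeq's promoter table holds, so that the letters upstream can be read beside the values. Olig2, Bmp4 and Enpp6 rose in the TOM comparison, while Vcan did not pass in either comparison. Each is the 250 bases before the gene's start, 5′ to 3′ on the gene's strand, in the GRCm38.p6 build, and these coordinates are not those of the GENCODE vM30 annotation used for the counts.
Olig2 (chr16:91225300-91225549, plus strand): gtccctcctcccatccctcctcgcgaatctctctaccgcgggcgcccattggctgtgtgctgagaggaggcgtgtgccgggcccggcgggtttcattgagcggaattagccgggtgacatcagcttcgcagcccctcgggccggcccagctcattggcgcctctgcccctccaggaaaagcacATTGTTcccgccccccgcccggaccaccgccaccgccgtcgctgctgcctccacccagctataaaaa
Vcan (chr13:89742513-89742762, minus strand): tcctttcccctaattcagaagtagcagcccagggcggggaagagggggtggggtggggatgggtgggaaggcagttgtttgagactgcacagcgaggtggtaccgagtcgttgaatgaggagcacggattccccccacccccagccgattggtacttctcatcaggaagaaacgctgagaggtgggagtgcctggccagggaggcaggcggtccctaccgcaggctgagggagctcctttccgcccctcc
Bmp4 (chr14:46390670-46390919, minus strand): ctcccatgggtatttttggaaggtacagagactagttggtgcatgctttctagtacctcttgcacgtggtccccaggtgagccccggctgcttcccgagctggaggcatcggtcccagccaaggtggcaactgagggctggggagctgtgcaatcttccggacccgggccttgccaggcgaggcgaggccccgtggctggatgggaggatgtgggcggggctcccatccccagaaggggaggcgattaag
Enpp6 (chr8:46986637-46986886, plus strand): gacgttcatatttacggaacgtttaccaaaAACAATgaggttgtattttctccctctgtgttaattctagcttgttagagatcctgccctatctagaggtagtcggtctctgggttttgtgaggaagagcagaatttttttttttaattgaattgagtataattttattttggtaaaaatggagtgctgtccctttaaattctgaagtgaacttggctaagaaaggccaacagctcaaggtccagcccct
Capitals mark AACAAT, a word that Sox proteins bind, read on either strand. It lay 220 to 215 bases before the Enpp6 start on the gene's strand and 67 to 62 bases before the Olig2 start on the other strand. AACAAT was in 9.42% of 32851 promoters of this length and in 3 of the 7 members, the third being Tcf7l2. ACAAAG, the core of the word that TCF proteins bind, was in 16.5% of promoters and in 1 of the 7 members, Tcf7l2 itself. CAGCTG, a word of bHLH factors such as Olig2, was in 13% of promoters and in 0 of the 7. The Enpp6 promoter had 38.4% G and C, against 66.8% for Olig2, 62.4% for Vcan and 63.2% for Bmp4. A match of letters is a description of these windows and not a binding site.

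TOM positive cells had higher mRNA of the lineage-wide regulators and of all 3 newly formed markers than TOM negative cells, while none of the 3 precursor markers passed the test. The median log2 fold change was 0.97 for the lineage-wide, 0.93 for the precursor, 1.08 for the committed and 1.94 for the newly formed genes. The difference between stages was not itself tested. Of the 10 genes, 6 rose (Enpp6, Bcas1, Tcf7l2, Sox10, Bmp4 and Olig2), 0 fell and 4 did not pass, by edgeR's quasi-likelihood test at an adjusted p under 0.05. Over all 15228 genes tested 23.9% passed, 10.4% rising and 13.4% falling. The estimate was above 0 for 9 of the 10 genes, against 49.1% of all genes, and 7 were higher in every TOM positive library than in any TOM negative one, against 20.8% of all genes. The median log2 fold change of the 10 genes was 1.34, against -0.02 over all genes tested. When library totals were used without scaling factors, the median log2 fold change of all genes moved by 0.26, so that 2204 genes rose and 1532 fell in place of 1589 and 2046, and 6 members were called.

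**Figure D1:**
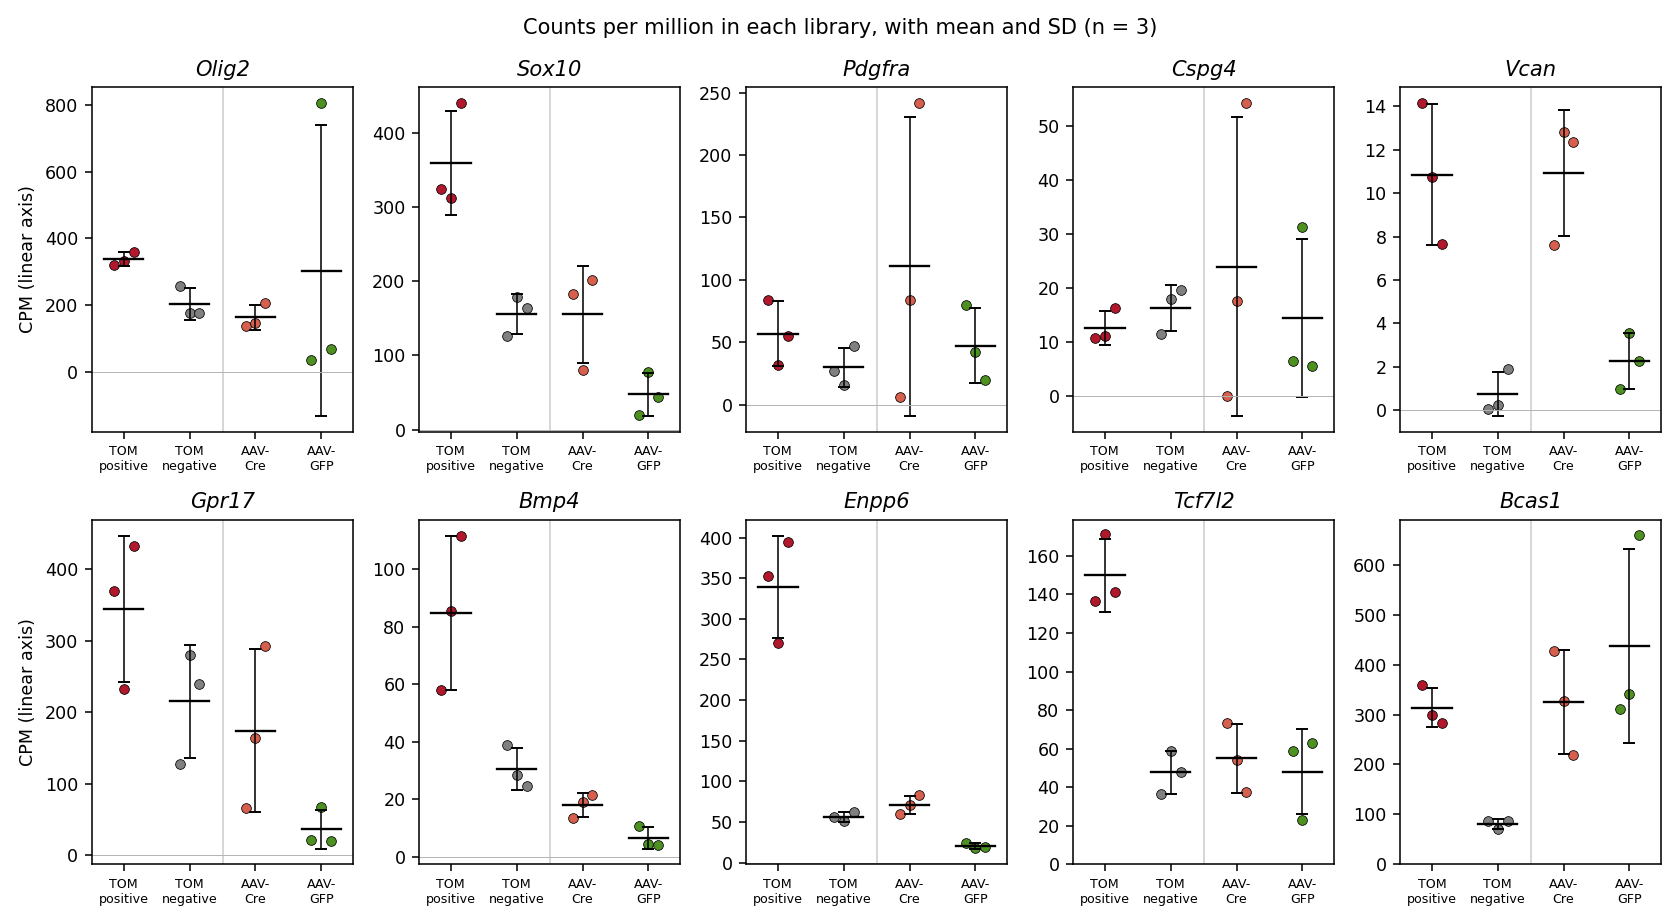
Counts per 1000000 counts of the scaled library total (CPM) of each of the 10 genes in each of the 12 libraries on linear axes, with a bar at the group mean and whiskers of 1 SD (n = 3). Enpp6, Bcas1, Tcf7l2, Sox10, Bmp4, Olig2 and Vcan are higher in all 3 TOM positive libraries than in any TOM negative one, and a single AAV-GFP library stands at 806 CPM for Olig2.

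Olig2 (chromosome 16, 91022345 to 91025565, plus strand), a basic helix-loop-helix factor needed to specify the lineage, had 320, 333 and 359 CPM in TOM positive cells, against 258, 175 and 175 CPM in TOM negative cells. The groups did not overlap, and TOM negative replicate 1 came closest to the TOM positive libraries. The log2 fold change was 0.73 ± 0.19 (estimate ± SE, edgeR adjusted p = 0.0298), and the call was lost in 5 of the 6 fits without 1 library, the adjusted p reaching 0.124. Those 5 left out TOM positive replicate 1, 2 or 3 or TOM negative replicate 2 or 3. Sox10 (chromosome 15, 79039108 to 79049440, minus strand), an HMG-box factor that switches on myelin genes, had 325, 312 and 440 CPM in TOM positive cells, against 126, 178 and 163 CPM in TOM negative cells. Every TOM positive library was above every TOM negative one, and the rise of 1.21 ± 0.20 on the log2 scale (edgeR adjusted p = 0.00693) held whichever library was left out.

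Pdgfra (chromosome 5, 75312953 to 75358876, plus strand) encodes the receptor through which platelet-derived growth factor keeps precursors dividing. It had 83.7, 31.6 and 55.0 CPM in TOM positive cells, against 26.7, 16.2 and 46.7 CPM in TOM negative cells. The groups overlapped, since TOM negative replicate 3 lay above TOM positive replicate 2, and the log2 fold change of 0.93 ± 0.48 did not pass (edgeR adjusted p = 0.214). Cspg4 (chromosome 9, 56772317 to 56807154, plus strand), which encodes the NG2 proteoglycan of precursors and pericytes, had 10.7, 11.0 and 16.2 CPM in TOM positive cells, against 11.5, 18.0 and 19.6 CPM in TOM negative cells. It was the 1 member with a negative estimate, -0.37 ± 0.40, which did not pass (edgeR adjusted p = 0.555).

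A list of 10 pericyte and smooth muscle genes took 0.000492% to 0.00117% of the counts in TOM positive and 0.00639% to 0.00786% in TOM negative libraries, and Kcnj8, Abcc9, Higd1b and Myh11 were at 0 counts in all 3 TOM positive ones. Of its 7 tested genes 0 rose and 3 fell, Vtn among them, which encodes vitronectin, at -5.79 ± 1.01 on the log2 scale (edgeR adjusted p = 0.00769). The part of pericyte mRNA in the Cspg4 values was not tested.

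Vcan (chromosome 13, 89803431 to 89890628, minus strand) encodes versican, a chondroitin sulfate proteoglycan of the matrix around precursors. It had 14.2, 10.8 and 7.65 CPM in TOM positive cells, against 0.0503, 0.242 and 1.88 CPM in TOM negative cells, from 276, 316 and 230 counts against 1, 5 and 41. The groups lay far apart, but the TOM negative libraries differed widely among themselves. The log2 fold change of 3.89 ± 1.22 did not pass (edgeR adjusted p = 0.0568). It passed without TOM negative replicate 3, at 6.14 (edgeR adjusted p = 0.0166), and with DESeq2 (adjusted p = 0.00159) and limma's voom (adjusted p = 0.012). Fibroblasts also make Vcan and Pdgfra, and a list of 8 fibroblast genes took 0.17% to 0.184% of the counts in TOM positive and 0.0688% to 0.142% in TOM negative libraries, most of it Ptgds, which oligodendrocytes make too. Of its 7 tested genes, 0 rose and 1 fell (Slc6a13, at 0 counts in all 3 TOM positive libraries). The part of fibroblast mRNA in the Vcan and Pdgfra values was not tested.

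Gpr17 (chromosome 18, 32076050 to 32082689, minus strand), a receptor made briefly by committed cells, had 370, 232 and 433 CPM in TOM positive cells, against 127, 280 and 239 CPM in TOM negative cells. TOM positive replicate 2 lay below 2 of the TOM negative libraries, and the log2 fold change of 0.68 ± 0.34 did not pass (edgeR adjusted p = 0.197). Its exons overlap those of Lims2 on the opposite strand, which had up to 6586 counts in a library, and the AAV libraries were counted without strand, so Gpr17 values are uncertain. Bmp4 (chromosome 14, 46620977 to 46628126, minus strand), which encodes a secreted ligand that cells committed to the lineage make for a time, had 57.9, 85.4 and 112 CPM in TOM positive cells, against 38.7, 28.3 and 24.5 CPM in TOM negative cells. It was higher in all 3 TOM positive libraries and rose by 1.48 ± 0.31 on the log2 scale (edgeR adjusted p = 0.0136). That call was lost without TOM negative replicate 2 (edgeR adjusted p = 0.0694).

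The 3 newly formed markers rose, Enpp6 and Bcas1 by more than any other member that passed. Enpp6 (chromosome 8, 47439922 to 47549797, plus strand) encodes a choline phosphodiesterase that is among the first genes of newly forming oligodendrocytes. It had 353, 270 and 394 CPM in TOM positive cells, against 55.6, 50.8 and 62.2 CPM in TOM negative cells. The lowest TOM positive library was far above the highest TOM negative one, and the log2 fold change was 2.59 ± 0.19 (edgeR adjusted p = 0.000295), a 6.04-fold difference. Bcas1 (chromosome 2, 170188911 to 170269765, minus strand), whose protein marks oligodendrocytes that are starting to myelinate, had 358, 299.9 and 283 CPM in TOM positive cells, against 87.0, 70.1 and 87.7 CPM in TOM negative cells. Its rise was 1.94 ± 0.17 on the log2 scale (edgeR adjusted p = 0.000521). Antisense genes overlap the exons of Bcas1 and Bmp4, and had at most 70 and 41 counts in a library. What this overlap did to the Bcas1 and Bmp4 counts was not tested.

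Tcf7l2 (chromosome 19, 55730252 to 55922086, plus strand) encodes a transcription factor that carries Wnt signals in the nucleus and is made by newly formed oligodendrocytes and by some neurons. It had 137, 171 and 141 CPM in TOM positive cells, against 36.6, 58.8 and 47.8 CPM in TOM negative cells. The rise of 1.65 ± 0.22 on the log2 scale passed (edgeR adjusted p = 0.00281), and the groups did not overlap. Enpp6, Bcas1 and Tcf7l2 passed in all 6 fits without 1 library. Of 11 neuronal genes tested 6 rose and 0 fell, Celf4 (an RNA-binding protein of neurons) most clearly at 4.20 ± 0.35 (edgeR adjusted p = 0.000411), and the part of neuronal mRNA in the Tcf7l2 values was not tested.

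**Figure D2:**
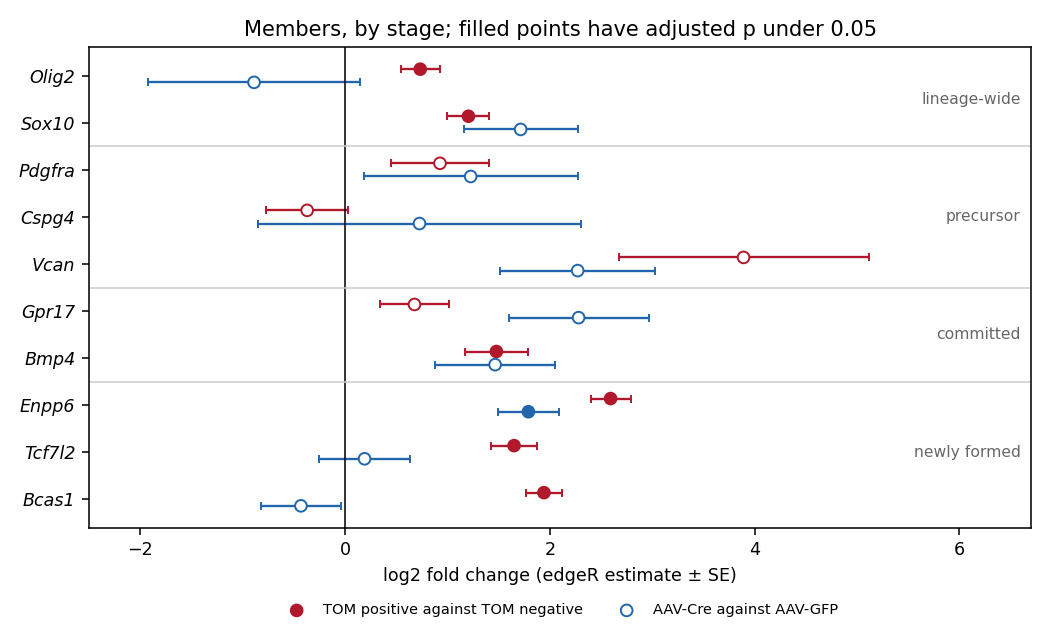
Log2 fold change ± SE of each of the 10 genes, ordered by stage from top to bottom, for TOM positive against TOM negative (red) and AAV-Cre against AAV-GFP (blue), filled where the edgeR adjusted p was under 0.05. Enpp6 is the gene filled in both, at 2.59 and 1.79, and the widest error is that of Vcan in the TOM comparison (1.22) and of Cspg4 in the AAV comparison (1.57).

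Other genes of the same stages were read beside the members, from lists given by symbol. Of 16 other newly formed genes, 11 rose and 0 fell in TOM positive cells, with a median log2 fold change of 1.72. Among them, the long noncoding RNA 9630013A20Rik had a mean of 277 ± 37.0 CPM in TOM positive libraries, against 15.2 ± 5.55 CPM in TOM negative libraries (SD, n = 3 each), and rose by 4.19 ± 0.31 on the log2 scale (edgeR adjusted p = 0.000294). Fyn, a kinase that relays axonal contact to the differentiating cell, rose by 1.65 ± 0.17 (edgeR adjusted p = 0.000891) and Chn2, a Rac regulator, by 1.79 ± 0.20 (edgeR adjusted p = 0.00147).

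Of 16 other precursor genes, 5 rose and 2 fell, with a median log2 fold change of 0.54. Tnr, which encodes the matrix protein tenascin R, rose by 3.00 ± 0.26 (edgeR adjusted p = 0.000458) and Lhfpl3 by 1.74 ± 0.27 (edgeR adjusted p = 0.00482). Gpr37l1, which astrocytes make as well, fell by 1.61 on the log2 scale (SE 0.15, edgeR adjusted p = 0.000582). Of 10 astrocyte genes 3 fell and 0 rose (median -0.21), while 13.4% of all genes fell. S100b (0.61 ± 0.24) was higher in every TOM positive library than in any TOM negative one. The astrocyte list took 0.912% to 1.17% of counts in TOM positive and 1.40% to 1.69% in TOM negative libraries. The part of astrocyte mRNA in the Gpr37l1 values was not tested. Of 14 mature genes, 12 rose and 0 fell, with a median of 1.39, among them Ermn at 2.98 ± 0.20, Mobp at 1.76 ± 0.14 and Mal at 1.90 ± 0.16 (edgeR adjusted p = 0.000409 or less for each). Of 14 lineage transcription factors, 4 rose and 1 fell, and St18, a zinc-finger factor, rose by 2.89 ± 0.29 (edgeR adjusted p = 0.000869).

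In 3 of 4 lists of genes around the signals and matrix in which members take part, genes passed in both directions. Over all genes tested 10.4% rose and 13.4% fell, the shares to set beside the counts of each list. In the PDGF list around Pdgfra, 2 of 10 genes rose and 4 fell. The ligand genes Pdgfa and Pdgfc rose by 1.26 ± 0.27 and 1.93 ± 0.44 on the log2 scale (edgeR adjusted p = 0.0153 and 0.0194), and the ligand gene Pdgfb, which endothelium makes, fell by 5.06 (SE 1.21, edgeR adjusted p = 0.0227). Endothelial genes took 1.87e-05% to 0.00687% of counts in TOM positive and 0.034% to 0.0468% in TOM negative libraries. The part of endothelial mRNA in the Pdgfb values was not tested.

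In the BMP list around Bmp4, 4 of 19 tested genes rose and 1 fell: the ligand gene Bmp2 rose by 2.09 ± 0.50 (edgeR adjusted p = 0.0227), the receptor gene Bmpr2 by 2.22 ± 0.59 (edgeR adjusted p = 0.032), and the ligand gene Bmp7 fell by 0.98 (SE 0.22, edgeR adjusted p = 0.0192). In the Wnt list around Tcf7l2, 3 of 18 tested genes rose and 0 fell, namely Apc at 2.69 ± 0.33, Gsk3b at 1.70 ± 0.32 and Nkd1 at 0.72 ± 0.20 (edgeR adjusted p = 0.00192, 0.0104 and 0.0384). Apc and Gsk3b encode parts of the complex that destroys beta-catenin, and Nkd1 encodes another inhibitor of the pathway. The other tested genes of the Wnt list did not pass. Among them were Axin1 (-0.30 ± 0.34), Axin2 (0.25 ± 1.01), Znrf3 (-0.15 ± 0.49), Rnf43 (1.18 ± 1.44) and Notum (-3.06 ± 1.52). In the chondroitin sulfate list around Cspg4 and Vcan, 1 of 11 tested genes rose and 2 fell, Bcan and Ncan, which astrocytes also make. The part of astrocyte mRNA in the Bcan and Ncan values was not tested. The median log2 fold changes of these 4 lists were 0.09, 0.09, 0.14 and 0.14. Of 5 tested cell-cycle genes 0 passed with edgeR, 1 had an unadjusted p under 0.05 and DESeq2 called 1 (Ube2c, lower in TOM positive cells). Over all 15228 genes tested, 5538 had an unadjusted p under 0.05 when TMM scaling left out the mature genes.

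**Figure D3:**
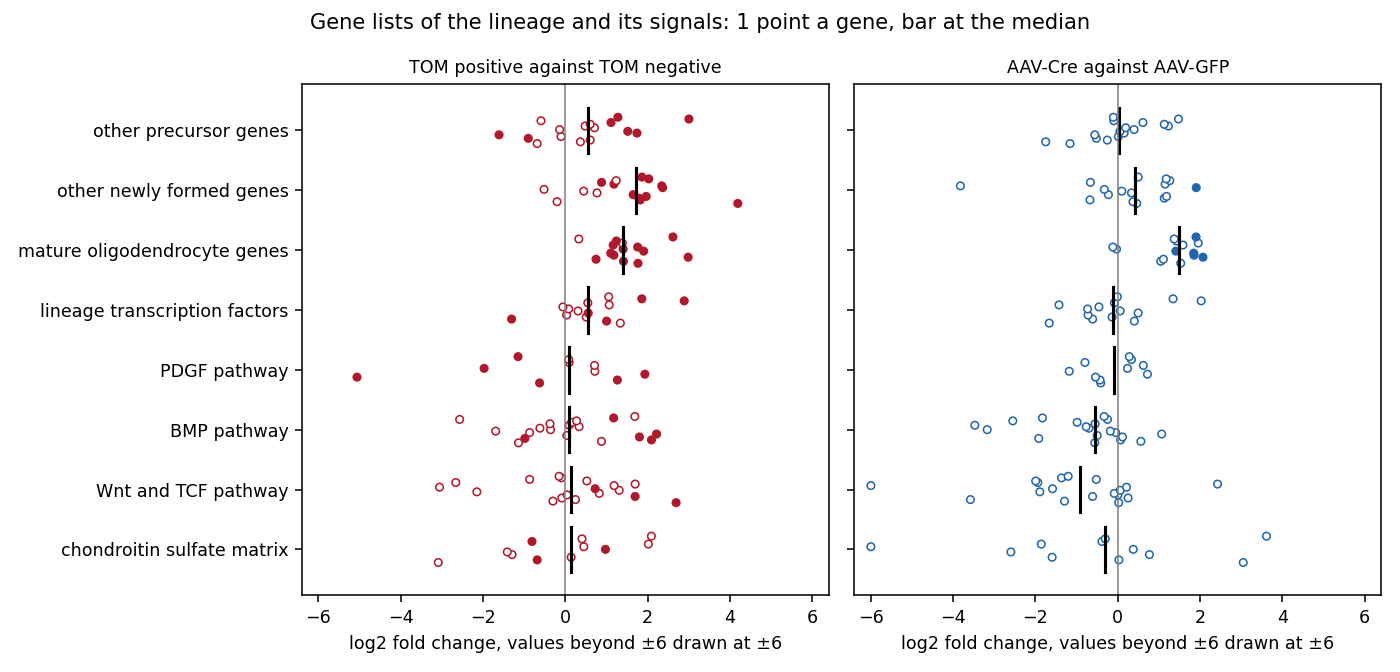
Log2 fold change of each tested gene of 8 lists, left for TOM positive against TOM negative and right for AAV-Cre against AAV-GFP, filled where the edgeR adjusted p was under 0.05, with a bar at the list median. The other newly formed list (median 1.72) and the mature list (median 1.39) lie to the right of 0 on the left panel, and the estimates of genes at 0 counts in a group depend on the prior count.

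Since the mature oligodendrocyte share also differed between TOM positive and TOM negative libraries, the members were read again relative to the summed counts of the 14 mature genes, a scale added after seeing the data. On it 1.9% of all genes rose and 38.4% fell, against 2 of the 10 members that rose and 1 that fell. How many of all genes had groups without overlap on this scale was not counted. Enpp6 stood at 7.60, 6.02 and 7.79 counts per 1000 mature counts in TOM positive libraries, against 2.14, 2.55 and 3.07 in TOM negative libraries. The groups did not overlap, and Enpp6 rose on this scale by 1.46 ± 0.20 (log2, edgeR adjusted p = 0.00142) and in all 6 fits without 1 library. Bcas1 stood at 7.71, 6.68 and 5.59 counts per 1000 mature counts in TOM positive libraries, against 3.36, 3.52 and 4.33 in TOM negative libraries. These groups did not overlap either, and Bcas1 rose by 0.83 ± 0.19 (edgeR adjusted p = 0.0109), a call that ended without TOM negative replicate 2 (0.79, edgeR adjusted p = 0.0506).

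Cspg4 stood at 0.230, 0.246 and 0.321 counts per 1000 mature counts in TOM positive libraries, against 0.442, 0.902 and 0.968 in TOM negative libraries. It was lower in every TOM positive library and fell by 1.54 on this scale (SE 0.43, edgeR adjusted p = 0.0255). It passed in 2 of 6 fits without 1 library: the call ended without TOM positive replicate 1 or 2 and without TOM negative replicate 2 or 3 (log2 fold changes of -1.44, -1.48, -1.41 and -1.34, with edgeR adjusted p up to 0.0935). Pericyte genes, as given above, also took a smaller share in TOM positive libraries. Enpp6, Bcas1 and Cspg4 also passed with Mbp, which took 15.4% to 74.3% of the mature counts, left out of the sum (1.53, 0.91 and -1.46). Olig2 had 6.90, 7.41 and 7.10 counts per 1000 mature counts in TOM positive libraries, against 9.96, 8.78 and 8.65 in TOM negative libraries, groups that did not overlap. Its log2 fold change of -0.36 ± 0.13 did not pass (edgeR adjusted p = 0.0719). Gpr17 stood at -0.51 ± 0.39 (edgeR adjusted p = 0.352), and without TOM negative replicate 1 at -0.84 (edgeR adjusted p = 0.04). Sox10 (0.051 ± 0.25), Bmp4 (0.38 ± 0.27), Tcf7l2 (0.51 ± 0.30), Pdgfra (-0.21 ± 0.50) and Vcan (2.70 ± 1.26) did not pass, and without TOM negative replicate 3 Vcan stood at 5.04 (edgeR adjusted p = 0.0234). Vcan had 0.305, 0.240 and 0.151 counts per 1000 mature counts in TOM positive libraries, against 0.00194, 0.0122 and 0.0928 in TOM negative libraries. The Vcan groups did not overlap.

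**Figure D4:**
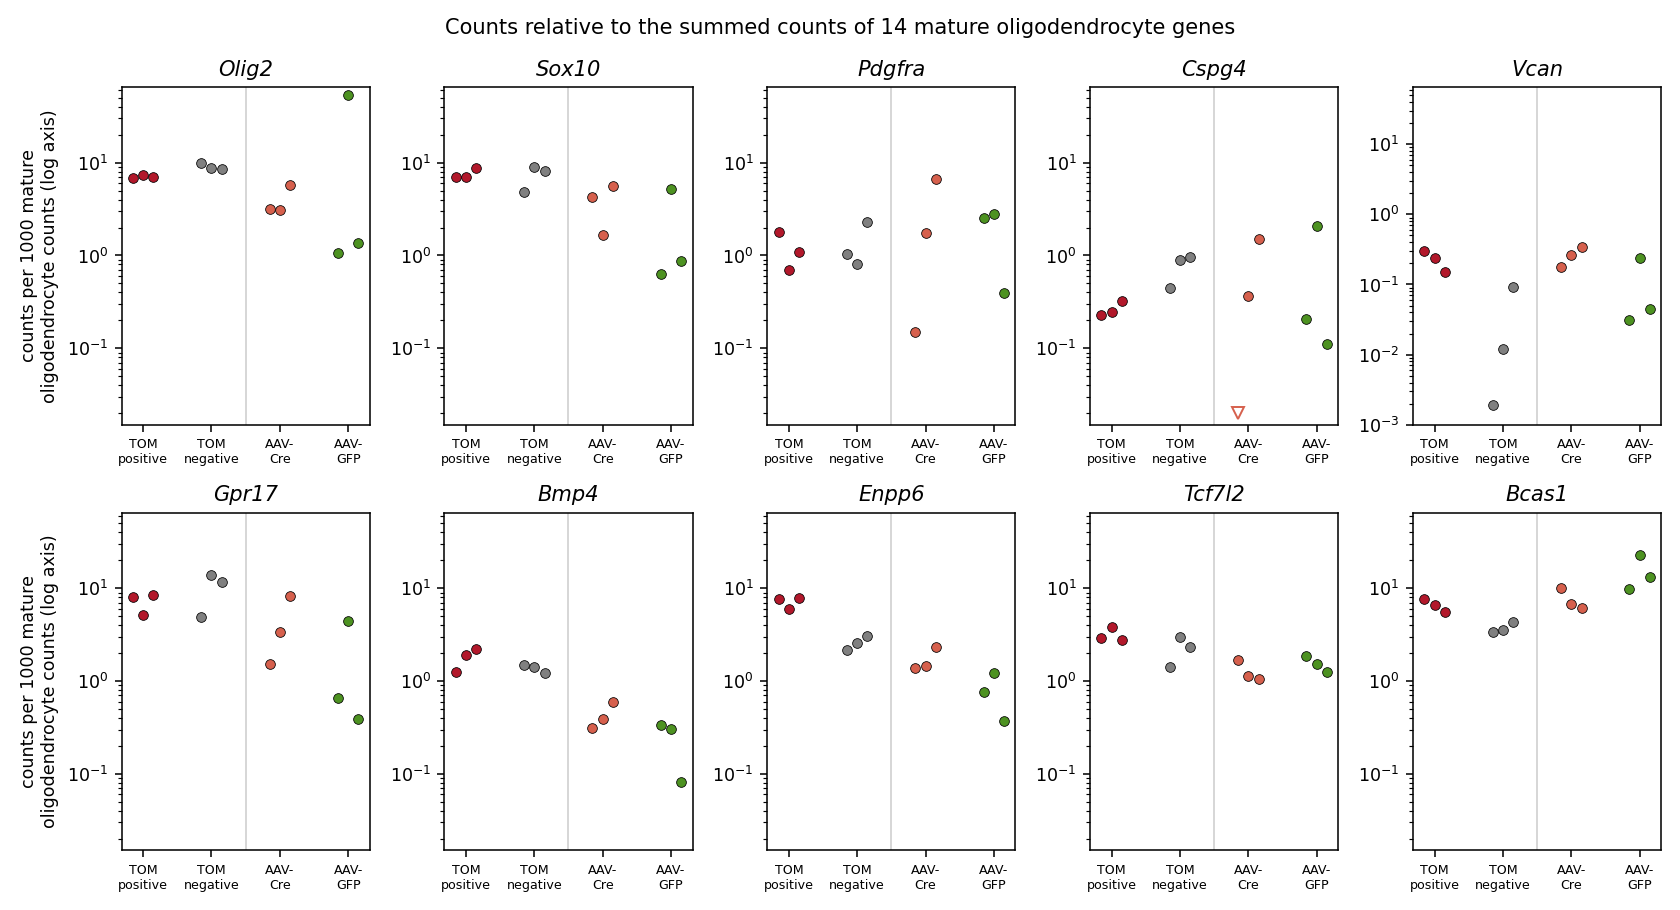
Counts of each of the 10 genes per 1000 counts of the 14 mature oligodendrocyte genes in each library, on log axes, with an open triangle where a library had 0 counts. Enpp6 is higher and Cspg4 lower in every TOM positive library (6.02 or more and 0.321 or less) than in any TOM negative library.

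AAV-Cre and AAV-GFP cells differed in 1 of the 10 genes, Enpp6, which was higher in AAV-Cre cells. The other 9 did not pass edgeR's test, and 5 members had an unadjusted p under 0.05. The SE of the members ran from 0.29 to 1.57 here, against 0.17 to 1.22 in the TOM comparison, so a gene that did not pass is not shown to have equal levels. Of the 15408 genes tested 2.6% passed, 0.63% rising and 1.97% falling. With mature genes left out of the TMM scaling, 2896 of these genes and 5 members had an unadjusted p under 0.05. The estimate was above 0 for 8 of the 10 genes, against 42.8% of all genes. The median log2 fold change of the 10 genes was 1.35, against -0.16 over all genes tested. Sox10, Vcan, Bmp4 and Enpp6 were higher in all 3 AAV-Cre libraries than in any AAV-GFP library, as were 9.85% of all genes. On library totals without scaling factors, the median of all genes moved by 0.16, and 127 rose and 241 fell in place of 97 and 303.

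Enpp6 had 60.0, 70.3 and 82.9 CPM in AAV-Cre cells, against 24.5, 18.3 and 18.9 CPM in AAV-GFP cells. The log2 fold change was 1.79 ± 0.29 (edgeR adjusted p = 0.0308), a 3.46-fold difference. Its size was 1.66 to 2.00 whichever library was left out, but it passed in 1 of those 6 fits, the one without AAV-Cre replicate 1 (edgeR adjusted p = 0.0455). It stood at 0.0784 without AAV-GFP replicate 2 and reached 0.135 without AAV-GFP replicate 1. Mature oligodendrocyte genes moved beside it, 5 of 14 rising and 0 falling (median 1.48), among them Mag at 1.85 ± 0.27, Ugt8a at 1.90 ± 0.29 and Hapln2 at 1.85 ± 0.35 (edgeR adjusted p = 0.0258, 0.027 and 0.0433). Without AAV-GFP replicate 2 these 3 stood at 1.67, 2.02 and 1.64, and 0 of the 14 passed with edgeR, 11 having an unadjusted p under 0.05 (median 1.16). In that fit 2880 of all genes had an unadjusted p under 0.05. Relative to the mature counts Enpp6 stood at 1.14 ± 0.67 and did not pass (edgeR adjusted p = 0.417), nor did any other member (0 had an unadjusted p under 0.05), while 0.0195% of all genes rose and 2.43% fell on that scale.

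Genes of ependymal cells and tanycytes, which line the ventricle, differed as well. Of 8 such genes 0 rose and 4 fell (median -2.90), among them Tmem212 at -9.93 ± 0.96, Ccdc153 at -8.08 ± 1.12 and Vim at -2.01 ± 0.36 on the log2 scale (edgeR adjusted p = 0.0202, 0.0248 and 0.038). The list took 0.0985% to 0.157% of counts in AAV-Cre libraries, with Rax at 0 in all 3, and 0.352% to 0.417% in AAV-GFP libraries. Without AAV-GFP replicate 2 only Tmem212 of the 8 passed (-10.27, edgeR adjusted p = 0.038). In the TOM comparison 2 of the 8 fell, Nnat and Vim. The part of these cells in the values of the 10 genes was not tested.

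Among the regulators, Sox10 had 183, 80.3 and 202 CPM in AAV-Cre cells, against 19.9, 77.8 and 44.1 CPM in AAV-GFP cells. AAV-Cre replicate 2 and AAV-GFP replicate 2 lay side by side, and 1.71 ± 0.56 did not pass (edgeR adjusted p = 0.153), nor did 2.27 ± 0.54 without AAV-GFP replicate 2 (edgeR adjusted p = 0.112). Olig2 had 137, 147 and 207 CPM in AAV-Cre cells, against 33.9, 806 and 68.1 CPM in AAV-GFP cells. The estimate of -0.89 ± 1.03 (edgeR adjusted p = 0.714) rests on AAV-GFP replicate 2, and without that library it was 1.67 ± 0.39 (edgeR adjusted p = 0.108).

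Pdgfra and Cspg4 differed widely among the AAV-Cre libraries. Pdgfra had 6.48, 84.0 and 242 CPM in AAV-Cre cells, against 79.6, 42.3 and 19.9 CPM in AAV-GFP cells. Cspg4 had 0, 17.6 and 54.3 CPM in AAV-Cre cells, against 6.57, 31.4 and 5.56 CPM in AAV-GFP cells. Both genes were lowest in AAV-Cre replicate 1 and highest of the 6 libraries in AAV-Cre replicate 3, and their differences of 1.23 ± 1.05 and 0.73 ± 1.57 did not pass (edgeR adjusted p = 0.596 and 0.86). Without AAV-Cre replicate 3 they were -0.07 and -0.72, and without AAV-GFP replicate 2 they were 1.14 ± 1.26 and 1.97 ± 1.90.

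Vcan had 7.61, 12.8 and 12.4 CPM in AAV-Cre cells, against 0.982, 3.55 and 2.25 CPM in AAV-GFP cells. Its groups did not overlap, and 2.27 ± 0.76 did not pass with edgeR (adjusted p = 0.16) but did with DESeq2 (adjusted p = 0.00464). The pericyte list took 0.000842% to 0.0021% of counts in AAV-Cre and 0.00747% to 0.0112% in AAV-GFP libraries, with Abcc9, Higd1b, Acta2 and Myh11 at 0 in AAV-Cre. The fibroblast list took 0.144% to 0.19% in AAV-Cre and 0.067% to 0.123% in AAV-GFP libraries. Col3a1 and Igf2 were at 0 in AAV-Cre, and Igf2 in AAV-GFP too. Most of that share was Ptgds, which oligodendrocytes make too, at 1585 ± 205 against 900 ± 407 CPM (SD, n = 3 each). Of the 5 tested genes of the list 0 rose and 0 fell, with a median log2 fold change of -1.46. The part of fibroblast mRNA in the Vcan values of the AAV libraries was not tested.

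Of the committed genes, Gpr17 had 66.3, 163 and 293 CPM in AAV-Cre cells, against 20.8, 67.2 and 19.6 CPM in AAV-GFP cells. Only AAV-Cre replicate 1 lay within the AAV-GFP range, and 2.28 ± 0.68 did not pass with edgeR (adjusted p = 0.125) but did with DESeq2 (adjusted p = 0.0179). Without AAV-GFP replicate 2 it was 3.10 ± 0.64 (edgeR adjusted p = 0.0918). Bmp4 had 13.5, 18.9 and 21.5 CPM in AAV-Cre cells, against 10.8, 4.57 and 4.15 CPM in AAV-GFP cells, a difference of 1.47 ± 0.58 that did not pass (edgeR adjusted p = 0.232).

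The other newly formed markers did not pass. Tcf7l2 had 73.4, 54.0 and 37.5 CPM in AAV-Cre cells, against 58.6, 22.9 and 62.9 CPM in AAV-GFP cells, and Bcas1 had 428, 326 and 219 CPM against 311, 342 and 660 CPM. Both pairs of groups overlapped, with estimates of 0.19 ± 0.45 and -0.43 ± 0.39 (edgeR adjusted p = 0.872 and 0.625). The difference between Enpp6 and these genes was not itself tested.

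Other genes of the lineage mostly did not pass between AAV-Cre and AAV-GFP cells. Of 16 other newly formed genes 1 rose, Nfasc, which encodes the adhesion protein neurofascin, at 1.91 ± 0.36 (edgeR adjusted p = 0.0436), and without AAV-GFP replicate 2 at 2.21 ± 0.33 (edgeR adjusted p = 0.0657). Of 16 other precursor genes, 14 lineage transcription factors and the tested genes of the PDGF, BMP, Wnt and chondroitin sulfate lists, 88 genes in all, 0 passed with edgeR, 14 had an unadjusted p under 0.05, DESeq2 called 10 and voom 1. Over all 15408 genes tested, 2896 had an unadjusted p under 0.05 when TMM scaling left out the mature genes. Id4, a BMP target, had the smallest p among the last 4 lists apart from genes at 0 in a group, at -3.47 ± 0.83 (edgeR adjusted p = 0.0617), and at -1.99 ± 0.35 without AAV-GFP replicate 2 (edgeR adjusted p = 0.0719). That library held the BMP list's highest share of counts, 0.426%, against 0.12% and 0.11% in the other AAV-GFP libraries and 0.0644% to 0.0768% in AAV-Cre libraries.

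Levels were next compared between genes within a library, as CPM per kb of gene model. In TOM positive cells the order ran from Olig2 (133 ± 7.90 CPM per kb) and Sox10 (118 ± 23.1) through Bcas1 (83.1 ± 10.5), Gpr17 (66.4 ± 19.8), Enpp6 (52.9 ± 9.87), Bmp4 (37.8 ± 11.9) and Tcf7l2 (16.8 ± 2.10) to Pdgfra (5.67 ± 2.60), Cspg4 (1.06 ± 0.261) and Vcan (0.751 ± 0.225, SD, n = 3 for each). Neighbours in this order overlapped in range except Sox10 with Bcas1, Bmp4 with Tcf7l2, Tcf7l2 with Pdgfra, and Pdgfra with Cspg4. The 3 precursor genes were thus the lowest of the 10, as they were in TOM negative cells, where Pdgfra (2.98 ± 1.55 CPM per kb) overlapped with Tcf7l2 (5.37 ± 1.25). In AAV-Cre cells every neighbour in the order overlapped in range, with Bcas1 (86.0 ± 27.7 CPM per kb) at the top and Vcan (0.756 ± 0.200) at the bottom. In AAV-GFP cells Bcas1 (116 ± 51.3) exceeded Sox10 (15.5 ± 9.54) without overlap.

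As a share of the summed level of the 10 genes per kb, the newly formed markers held 32.7%, 30.5% and 26.3% in TOM positive libraries, against 16.0%, 14.4% and 17.1% in TOM negative libraries. The precursor markers held 2.02%, 1.04% and 1.27% in TOM positive libraries, against 1.61%, 1.36% and 2.87% in TOM negative libraries. The newly formed share did not overlap between these groups and the precursor share did, and neither was tested. In AAV-Cre libraries the newly formed share was 49.4%, 43.4% and 23.6%, against 71.3%, 20.8% and 78.9% in AAV-GFP libraries, where Olig2 held most of replicate 2. Most of the newly formed share in each AAV library was Bcas1, whose mRNA continues into myelinating cells. Bcas1 stood at 86.0 ± 27.7 CPM per kb in AAV-Cre and 116 ± 51.3 in AAV-GFP libraries (SD, n = 3 each). Enpp6 stood at 11.1 ± 1.79 and 3.20 ± 0.533, and Tcf7l2 at 6.18 ± 2.02 and 5.41 ± 2.47. The precursor share ran from 0.443% in AAV-Cre replicate 1 to 9.27% in AAV-Cre replicate 3, and from 1.11% to 6.58% in AAV-GFP libraries.

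**Figure D5:**
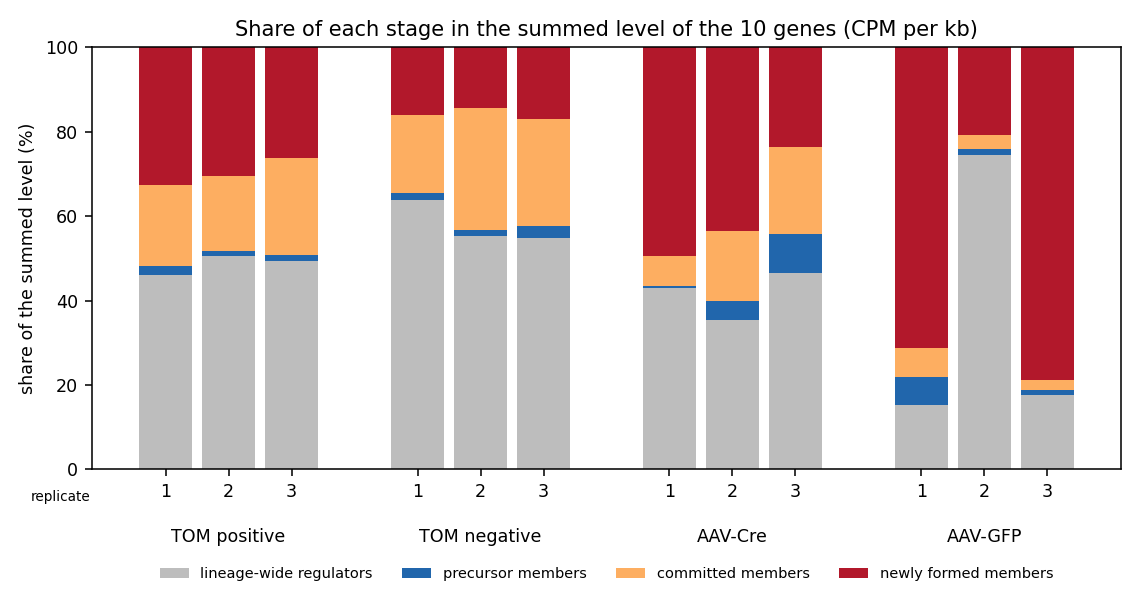
Share of each stage in the summed level (CPM per kb) of the 10 genes, 1 bar a library. The newly formed share is 26.3% or more in each TOM positive library and 17.1% or less in each TOM negative library, and the AAV libraries of a group differ widely. Most of the newly formed share in each AAV library is Bcas1, which is also the highest newly formed marker in each TOM library.

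Set against the precursor receptor, Enpp6 was 6.59, 13.4 and 11.2 times Pdgfra per kb in TOM positive libraries, and 3.26, 4.91 and 2.08 times in TOM negative libraries. In the AAV libraries the ratio was 14.5, 1.31 and 0.536 in AAV-Cre, against 0.480, 0.675 and 1.48 in AAV-GFP. The ratio was above 1 in all 6 TOM libraries. It lay on both sides of 1 in the AAV-Cre and in the AAV-GFP libraries, and AAV-Cre replicate 3 had the most Pdgfra of the 6. In the AAV libraries its position depended on the division by length. In CPM, Enpp6 was below Pdgfra in every AAV-GFP library and in AAV-Cre replicates 2 and 3.

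Patterns over the 12 libraries were compared as the root mean square distance between log2 CPM profiles, over 13974 genes. Each profile was centred on its mean in the 6 TOM libraries and, apart, on its mean in the 6 AAV libraries. Level differences between TOM and AAV libraries, which differ in tissue, age, genotype and sort, thus do not enter. These distances describe the libraries and carry no test. Nearest to Enpp6 were Shroom2 (0.230), Arrdc3 (0.239) and Tspan2 (0.270). Sox10 was most like Efnb3 (0.239), Col9a3 (0.260) and Plekhg3 (0.326), and Bcas1 most like Dynlt3 (0.235), Tmod2 (0.236) and Pcp4 (0.263). Pdgfra had no close neighbour, the nearest being Slc5a3 (0.617), Pcdhb5 (0.658) and Lcor (0.663). Among the 10 genes themselves the nearest pairs were Tcf7l2 with Bcas1 (0.466), Enpp6 with Bmp4 (0.533) and Sox10 with Gpr17 (0.672).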

How the data were processed

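The authors deposited raw read counts for each gene symbol. FastQC, Trim Galore, STAR and featureCounts were used, with mm10 named as the build, per the submitters' processing notes. The AAV counts are of read pairs by gene name, made with featureCounts 2.0.1 on GENCODE vM30 without strand or multi-mapping reads, per the file headers; that annotation belongs to a later assembly than mm10. For the TOM table the sources used here state no counting settings. Per the labels, RNA came from cells sorted into Trizol and libraries from a SMART-Seq kit for low input. No protocol describes molecular identifiers, so PCR copies count as reads.

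The members and lists were chosen with earlier results of these data known. The text names all 10 members, Otp, Mc4r, and the 3 genes with the smallest p of each list in the comparison described, or those of them that bear on a member. The 6 libraries of a comparison were fitted by themselves in edgeR 4.0.16 (R 4.3.3): TMM scaling, filterByExpr with a minimum count of 10, the quasi-likelihood test, two-sided, and Benjamini-Hochberg adjustment over all genes tested, threshold 0.05. CPM used TMM-scaled totals, and standard errors were derived from the test statistic. The fit relative to mature genes took their summed counts as library size; it and its alternatives (without Mbp, without each library), and list genes without AAV-GFP replicate 2, were added after seeing the data. One gene of the mature list is not reported here and enters neither that list nor that sum. Levels per kb used the gene lengths in the annotation columns of the AAV files. Distances between profiles used log2 CPM with a prior count of 2. Alternatives were RLE factors, no scaling factors, TMM without mature genes, no count filter, a replicate block, DESeq2 1.42.0, voom with quality weights (limma 3.58.1), each library left out, and shares without division by length. No replicate pair agreed within sampling noise (chi-square per degree of freedom 44.6 or more). In simulated data with known changes, median estimates came near the true size. Many of those changes did not pass in the TOM setting, and none did in the AAV setting. The simulated data held fewer changed genes than the fits of the real data called. They therefore do not show how often real changes of that size pass.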

Additional observations from a re-analysis of the deposited data

How the results depend on the processing

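In the TOM comparison Enpp6, Bcas1, Tcf7l2 and Sox10 passed under all 13 settings, and 4 to 7 of the 10 genes were called. The number of genes called was 3635, 1987 with the replicate block, 5521 with DESeq2, and 1511 (without TOM negative replicate 2) to 3547 without 1 library. The block ended the calls of Bmp4 (edgeR adjusted p = 0.0613) and Olig2 (adjusted p = 0.0743). In the AAV comparison 400 genes were called, 712 with no count filter, 0 with the block, 1884 with DESeq2, and 0 to 296 without 1 library. The count of members was 1, 2 with no count filter (Gpr17 added, adjusted p = 0.043), 0 with the block (Enpp6 adjusted p = 0.179), 4 with DESeq2 (Sox10, Vcan and Gpr17 added), and 0 to 1 without 1 library. Without AAV-GFP replicate 1, 2 or 3 the genes called were 0, 2 and 0. Relative to the mature genes the count of members was 0, and 0 to 1 without 1 library, the 1 being Olig2 without AAV-GFP replicate 1. With the block 2013 genes had an unadjusted p under 0.05, and without AAV-GFP replicate 1, 2 or 3 edgeR gave 2609, 2880 and 2342 such genes.

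Estimates that changed sign, none of them called, were these in the AAV comparison: Olig2 with the block (0.60) and voom (0.71), and Cspg4 with the block (-0.89) and voom (-0.19). Without 1 library the range was -1.32 to 1.67 for Olig2 (above 0 without AAV-GFP replicate 2), -0.72 to 1.97 for Cspg4 and -0.071 to 1.91 for Pdgfra (both below 0 without AAV-Cre replicate 3), -0.16 to 0.52 for Tcf7l2 (below 0 without AAV-Cre replicate 1 or AAV-GFP replicate 2) and -0.69 to 0.080 for Bcas1 (above 0 without AAV-GFP replicate 3). Relative to the mature genes in the TOM comparison, Sox10 ran from -0.17 to 0.23 when 1 library was left out (below 0 in the fits that lacked TOM negative replicate 1 or TOM positive replicate 3) and Pdgfra from -0.63 to 0.38 (above 0 in those that lacked TOM negative replicate 3 or TOM positive replicate 2). The members called on that scale numbered 3, and 1 (without TOM negative replicate 2, Enpp6) to 4 without 1 library. The cause was not tested.

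Without division by gene length the newly formed share was 40.2% for TOM positive, against 22.2% for TOM negative; with it, 29.8% against 15.8%. Low counts, such as the 1 and 5 of Vcan in TOM negative libraries, limit precision. DESeq2 gave no adjusted p for Olig2 in the AAV comparison. Whether replicate numbers pair the libraries, by animal or by sort, is not known. Same-numbered libraries deviated with correlations of -0.031, -0.014 and 0.025 in the TOM and -0.070, -0.070 and -0.065 in the AAV comparison. Not every library was most like its own number. With so few libraries of unlike cells, these values cannot show or exclude pairing. Calls that the replicate block ended therefore rest on the libraries being unpaired.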
